A study of Mus musculus with 12 samples.

Results

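The 10 genes described here encode components of the early basement membrane and its close partners: the laminin chain genes Lama1, Lama5, Lamb1 and Lamc1, the type IV collagen genes Col4a1 and Col4a2, the linker and proteoglycan genes Nid1 and Hspg2, and the matrix genes Sparc and Fn1. They were chosen by name from 21631 protein-coding genes on chromosomes 1 to 19 and X. Each gene was given the bases that lie nearer to its own ends than to the ends of any other protein-coding gene, up to 100 kb away in the mm10 build. Peaks of 12 deposited lists that fell in those bases were assigned to the gene. Merged over all lists, they formed 99 of the 81290 regions of the series.

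Basement membranes are thin extracellular sheets under epithelia. Laminins are heterotrimers of an alpha, a beta and a gamma chain and polymerise on the cell surface, where integrins and dystroglycan bind them. Type IV collagen forms a second network, and nidogen and perlecan tie both networks together. In the mouse gastrula a basement membrane separates epiblast from visceral endoderm, and it is breached at the primitive streak, where cells leave the epiblast and migrate over a fibronectin-rich matrix. H3K27ac is a histone acetylation found at promoters and enhancers in use. H3K4me1, a methylation, sits at enhancers and beside promoters, whether active or poised.

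Cells of C57BL/6 mouse embryos were profiled at 6 morphological stages: Pre_PS (before the streak, E6.0), ES (early streak, E6.0 and E6.5), MS (mid-streak, E6.0 and E7.0), LS (late streak, E7.0 and E7.25), OB (no allantoic bud, E7.25 and E7.5) and EHF (early headfold, E7.5), where E is the embryonic day of dissection. CoBATCH was used, in which an antibody against the mark guides a transposase to nearby DNA in barcoded single cells. There was 1 peak list for each stage and mark, so nothing below has a replicate or a test. The number of embryos and cells behind a list is not given in the sources used here. Per the labels' protocols, extra-embryonic tissue was dissected away from embryos up to LS, with no such statement for OB or EHF. A difference between OB or EHF and the earlier stages therefore cannot be told apart from such a difference in tissue.

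The H3K27ac lists held 13398 peaks at Pre_PS and 30072 to 39635 at the 5 later stages, and the H3K4me1 lists 35646 to 47849. Covered length was 14.3 Mb at Pre_PS and 35.9 to 42.1 Mb later for H3K27ac, and 23.4 Mb at Pre_PS and 39.1 to 51.3 Mb later for H3K4me1. The weakest peaks of each list were those at its highest p-value (lowest −log10 p). They made up 14.4% of H3K27ac and 67.3% of H3K4me1 peaks at Pre_PS, against 2.64% to 9.77% in the other 10 lists. Pre_PS is therefore left out of the main comparison of stages and enters it only as an alternative. Genes of extra-embryonic cell types were covered too: at the 5 later stages H3K27ac was present at 12 to 13 of 14 parietal endoderm genes (summed 1403 to 1558 covered bp per covered Mb), 11 to 12 of 15 visceral endoderm genes (634 to 711) and 10 to 11 of 12 trophoblast genes (1409 to 1551). Over all protein-coding genes, 72.1% to 75.5% had H3K27ac at these stages. Among the listed extra-embryonic genes, Afp and Cer1 (visceral endoderm), Prl3d1 (trophoblast giant cells) and Plat (parietal endoderm) had no peak of either mark at any of these stages. The part of such cells in the values below was not tested. The bases of 12 epiblast genes summed to 1056 to 1162 covered bp per covered Mb of H3K27ac at those stages, and those of 12 mesoderm genes to 1290 to 1472.

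Upstream sequences were read for the 7 members listed in RefSeq's promoter table of the same assembly. They are Lama5, Lamb1, Col4a1, Col4a2, Nid1, Hspg2 and Sparc. Those of Lama5 and Hspg2, the most widely marked members, are set against those of Nid1 and Sparc. The H3K27ac start peaks of Nid1 and Sparc were missing at Pre_PS, which has a shallow list. Each is printed 5′ to 3′ on its own strand, up to the first base of the annotated gene. Capitals mark the GC box, GGGCGG or its complement, which is the core of the site bound by the SP and KLF factors. The windows are chr2:180225905-180226109 (minus strand) for Lama5, chr4:137468553-137468750 (plus) for Hspg2, chr13:13437352-13437601 (plus) for Nid1 and chr11:55420081-55420330 (minus) for Sparc.
Lama5: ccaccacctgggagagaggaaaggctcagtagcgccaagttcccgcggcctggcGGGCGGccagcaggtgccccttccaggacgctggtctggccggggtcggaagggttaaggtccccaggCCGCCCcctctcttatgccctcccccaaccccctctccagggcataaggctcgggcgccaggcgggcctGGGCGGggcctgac
Hspg2: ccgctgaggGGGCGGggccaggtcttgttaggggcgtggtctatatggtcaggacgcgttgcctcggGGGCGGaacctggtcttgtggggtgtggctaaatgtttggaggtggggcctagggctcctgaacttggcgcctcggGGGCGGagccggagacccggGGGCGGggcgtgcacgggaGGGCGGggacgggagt
Nid1: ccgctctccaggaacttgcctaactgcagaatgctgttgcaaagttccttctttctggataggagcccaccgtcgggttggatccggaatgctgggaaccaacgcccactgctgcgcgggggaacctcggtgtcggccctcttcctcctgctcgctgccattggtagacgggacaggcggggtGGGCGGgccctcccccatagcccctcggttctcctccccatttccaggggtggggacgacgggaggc
Sparc: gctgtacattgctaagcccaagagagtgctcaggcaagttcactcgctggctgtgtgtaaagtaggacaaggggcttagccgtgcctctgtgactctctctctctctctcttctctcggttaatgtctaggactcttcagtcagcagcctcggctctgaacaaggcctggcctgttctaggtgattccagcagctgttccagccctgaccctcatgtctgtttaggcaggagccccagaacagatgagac
The printed Lama5 stretch holds 3 GC boxes, that of Hspg2 holds 5, that of Nid1 holds 1 and that of Sparc holds 0. Over the 250 bases upstream of the RefSeq start, 5 of the 7 members have at least 1 GC box on either strand, against 32.7% of 32851 mouse windows of that length. CCAAT occurs in 4 of the 7 and in 33.8% of all windows. The TATA box TATAAA, searched like the others on both strands, occurs in 0 of the 7 and in 12.4% of all windows. The AP-1 motif TGAGTCA is in 0 of the 7 and 4.46% of all, the GATA motif AGATAA in 0 and 9.99%, the TCF and SOX motif ACAAAG in 0 and 16.5%, and the nuclear receptor motif AGGTCA in 0 and 14.0%. GC content of the 250 bases is 54.0% for Sparc, near the median of 52.4% of all windows, and between 62.0% and 74.4% for the other 6 members. Such matches describe letters and do not show that a factor binds.

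**Figure D1:**
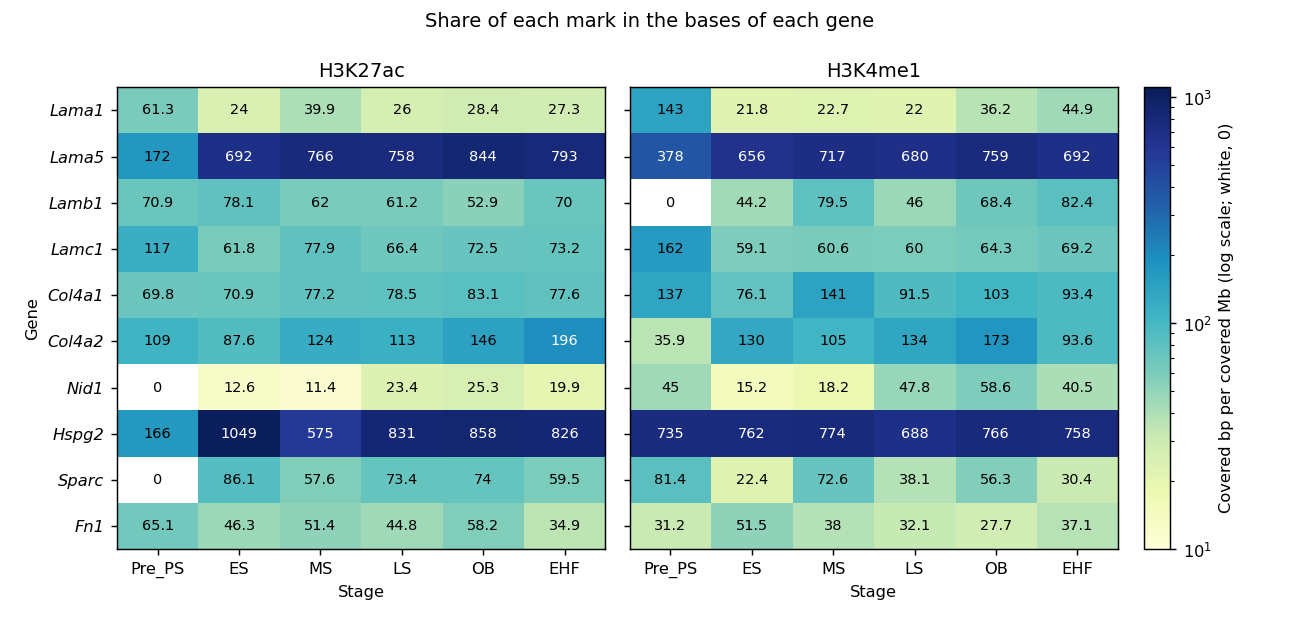
Heat map of covered bp per covered Mb, the share, in the bases of each gene (rows) at each stage (columns), for H3K27ac on the left and H3K4me1 on the right, on a log colour scale with 0 in white; each cell is 1 peak list. Lama5 and Hspg2 stand above the other 8 genes at each stage after Pre_PS in both marks. Nid1 and Sparc are at 0 for H3K27ac at Pre_PS, the list with the fewest peaks.

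With all peaks, coverage was concentrated in 2 of the 10 genes. Lama5 (chr2:180176373-180225904) encodes the laminin alpha chain of laminin-511, and Hspg2 (chr4:137468751-137570630) encodes perlecan, a heparan sulphate proteoglycan. At the 5 later stages H3K27ac peaks covered 42.1% to 48.9% of the 65.3 kb around Lama5 while the median over genes was 1.44% to 1.71%, and they covered 20.7 to 43.5 kb of the 109 kb around Hspg2. By covered bp the 2 genes ranked 13 to 25 and 6 to 34 among all genes. The other 8 members together held 467 to 558 covered bp per covered Mb, a unit called the share below, against shares of 692 to 844 for Lama5 alone and 575 to 1049 for Hspg2 alone. H3K4me1 gave the same 2 genes, with 41.4% to 59.2% of the bases of Lama5 and 27.3% to 35.9% of those of Hspg2.

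Per length, the order of the genes for H3K27ac at the 5 later stages was Lama5, Hspg2, then Sparc (3.06% to 5.29%) and Col4a2 (2.85% to 5.56%), then Lamb1 (1.22% to 2.05%), Lamc1 (1.45% to 1.59%) and Col4a1 (1.26% to 1.503%), then Fn1 (0.7399% to 1.24%), Lama1 (0.588% to 0.854%) and Nid1 (0.301% to 0.728%). The ranges of Lama5 and Hspg2 did not overlap, and neither overlapped the others. Sparc and Col4a2 overlapped each other and no other gene. Within the remaining 6, each neighbour in the order overlapped the next except Col4a1 and Fn1, whose lowest and highest values were 1.26% and 1.24%. Covered length is not a measure of transcript level.

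Lama5 had 9 to 12 H3K27ac peaks at each later stage. The H3K27ac share was 172 at Pre_PS, 692 at ES, 766 at MS, 758 at LS, 844 at OB and 793 at EHF. The H3K4me1 share was 378 at Pre_PS, 656 at ES, 717 at MS, 680 at LS, 759 at OB and 692 at EHF. Both marks were lowest at Pre_PS and highest at OB, and with all peaks the 5 later values of a mark lay within 1.22-fold for H3K27ac and 1.16-fold for H3K4me1. In the upper 50% of each list by −log10 q they were further apart, from 99.6 at EHF to 824 at LS for H3K27ac and from 215 at EHF to 899 at ES for H3K4me1. Of the H3K27ac coverage at these stages, 87.0% to 91.5% lay inside the gene and more than 1 kb from its ends.

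The coverage of Lama5 took 2 forms. A peak over the start carried the highest enrichment: in the authors' deposited fold over background it reached 5.53 at Pre_PS, 19.7 at ES, 17.9 at MS, 25.6 at LS, 22.9 at OB and 30.8 at EHF. At EHF it ran from −0.65 kb to 1.11 kb, counted from the RefSeq start. The widest coverage lay in the 3′ part instead, in the merged region chr2:180170926-180199377 that begins 26.5 kb from the start and passes the gene's lower end. With bases past that end included, H3K27ac covered 1.54 kb of it at Pre_PS, 23.3 kb at ES, 21.4 kb at MS, 25.0 kb at LS, 22.2 kb at OB and 19.1 kb at EHF. The Pre_PS coverage lay wholly in bases not assigned to Lama5. At LS a peak of 19.05 kb ran from 29.1 to 48.1 kb, with a fold of 6.97, while at EHF that stretch held 3 peaks with folds of 3.75 to 5.42. Most of the large share of Lama5 was thus broad coverage at a lower fold than the start peak.

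A short distal region of Lama5, at −5.12 to −4.65 kb from the start, had no H3K27ac at Pre_PS, ES and MS and a peak at LS, OB and EHF, with folds of 3.43, 3.90 and 4.98. H3K4me1 was present there at LS and OB. The H3K27ac folds lay below the medians of their lists, 6.72, 6.72 and 6.97, whose lowest folds were 3.01, 3.25 and 3.10. Absence at ES and MS cannot be told apart from a weak signal that was not listed. A second upstream region, at −9.75 to −8.62 kb, carried H3K27ac at each of the 5 later stages.

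Hspg2 differed in form. It had 15 to 28 H3K27ac peaks per later list. Peaks of both marks and all stages formed 27 merged regions, of which 26 lie inside the gene and 1 spans its start. The H3K27ac share was 166 at Pre_PS, 1049 at ES, 575 at MS, 831 at LS, 858 at OB and 826 at EHF. With all peaks ES was highest and MS lowest of the 5 later stages, 1.82-fold apart, although they are neighbours in time. That order turned on the peaks used. With an equal number of peaks from each H3K27ac list, ES was the lowest later stage at 206, with 267 at MS, and EHF was the highest at 531. The H3K4me1 share was 735 at Pre_PS, 762 at ES, 774 at MS, 688 at LS, 766 at OB and 758 at EHF, a range of 1.12-fold over the later stages. At MS the widest H3K27ac peak was 3.41 kb, against 8.70 kb at ES.

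The 2 widest merged regions of Hspg2 lie inside the gene. In the region 10.9 to 21.8 kb from the start, H3K27ac covered 0.458 kb at Pre_PS, 8.915 kb at ES, 3.44 kb at MS, 5.615 kb at LS, 5.74 kb at OB and 7.985 kb at EHF. Of the region 69.2 to 78.0 kb from the start it covered none at Pre_PS, 8.70 kb at ES, 3.41 kb at MS, 5.43 kb at LS, 3.48 kb at OB and 4.20 kb at EHF. With all peaks both regions were widest at ES, while MS was the lowest of the 5 later stages in each. Of the 27 regions, 13 had H3K27ac and 17 had H3K4me1 at all 5 later stages. The start peak reached folds of 7.61 to 24.5 for H3K27ac and 3.08 to 23.9 for H3K4me1 over the 6 stages.

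**Figure D2:**
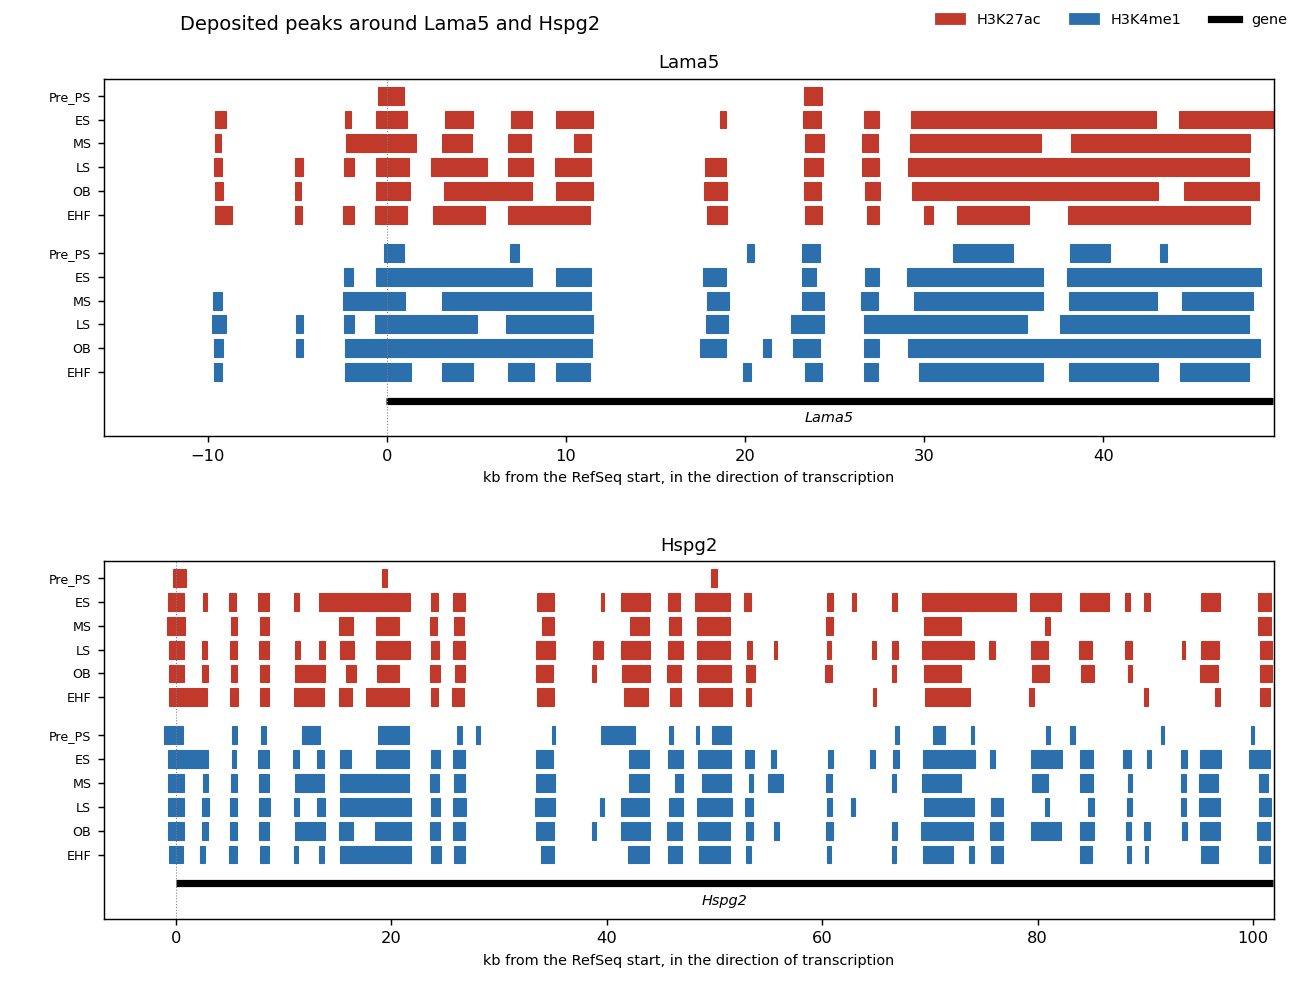
Peaks of both marks (bars to scale) around Lama5 and Hspg2, in kb from the RefSeq start along the direction of transcription; each row is 1 stage and the black bar is the gene. Lama5 shows a start peak and a wide block between about 29.1 and 48.1 kb, whereas Hspg2 shows many peaks spread over the gene.

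The low H3K27ac shares of Lama5 and Hspg2 at Pre_PS moved with the depth of that list. When 13398 peaks were taken from each H3K27ac list, those with the highest −log10 q of the authors, the Lama5 share was 172 at Pre_PS and 83.8 to 239 at the 5 later stages. Hspg2 then had 166 at Pre_PS and 206 to 531 later, so that its Pre_PS value stayed the lowest while that of Lama5 fell within the later range. With these peaks Lama5 did not stand above the other genes throughout: at ES its share of 83.8 was below those of Col4a1 (108), Lamb1 (106) and Lamc1 (95.7), and at OB its share of 99.4 was below that of Lamc1 (109).

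The alpha, beta and gamma chain genes of laminin-111, the first laminin of the mouse embryo, had few regions. At Lama1 (chr17:67697127-67822645) H3K27ac formed 1 peak at the lower-coordinate end of the gene in each of the 6 lists, with widths of 0.874 to 1.43 kb. Its share was 61.3 at Pre_PS, 24.0 at ES, 39.9 at MS, 26.0 at LS, 28.4 at OB and 27.3 at EHF. H3K4me1 had the same single peak at ES, MS and LS. At OB and EHF it had 2 more, of which 1, at 101.8 to 102.2 kb, was shared by these stages. The H3K4me1 share was 143 at Pre_PS, in 4 peaks of which 3 were at the highest p-value of their list. It was 21.8 at ES, 22.7 at MS, 22.0 at LS, 36.2 at OB and 44.9 at EHF. OB and EHF were above ES, MS and LS and below Pre_PS, and the additional peaks were weak: their folds lay between 3.23 and 3.55.

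Lamb1 (chr12:31265146-31329644), the beta chain gene, had a start peak and an upstream region at −41.1 to −40.3 kb, chr12:31224198-31224956, that carried both marks at each of the 5 later stages and neither at Pre_PS. H3K27ac folds in that upstream region were 5.04 to 6.27, against 8.68 to 17.3 at the start. The H3K27ac share of Lamb1 was 70.9 at Pre_PS and 52.9 to 78.1 at the later stages and its H3K4me1 share 44.2 to 82.4, with no H3K4me1 peak at Pre_PS.

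Lamc1 (chr1:153218922-153332786), the gamma chain gene, had 2 H3K27ac regions and both carried both marks at all 5 later stages: one over its higher-coordinate end, 1.99 to 2.18 kb of H3K27ac wide, and one inside the gene, centred 27.4 kb from that end. Its end peak reached an H3K27ac fold of 32.5 at EHF, the highest of the 10 genes. Of its 10 merged regions, 6 were present in the H3K4me1 list of Pre_PS alone. In that list 67.3% of peaks are at the highest p-value. The H3K27ac share was 117 at Pre_PS and 61.8 to 77.9 over the later stages, and the H3K4me1 share was 162 at Pre_PS and 59.1 to 69.2 later. By share, Pre_PS was thus the highest stage in both marks. By covered length, H3K27ac of Lamc1 was lowest there, at 1.67 kb against 2.56 to 2.80 kb later, as the Pre_PS list covers only 14.3 Mb.

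Fn1 (chr1:71585473-71653280) encodes fibronectin, the glycoprotein on which mesoderm cells migrate. It had 3 merged regions: its higher-coordinate end, a region 23.5 to 24.3 kb from its lower-coordinate end, and a single H3K4me1 peak at ES. The inner region held H3K27ac at ES, MS, LS and OB and none at Pre_PS and EHF, while H3K4me1 was there in all 6 lists. The H3K27ac share was 65.1 at Pre_PS, 46.3 at ES, 51.4 at MS, 44.8 at LS, 58.2 at OB and 34.9 at EHF. The H3K4me1 share was 31.2 at Pre_PS, 51.5 at ES, 38.0 at MS, 32.1 at LS, 27.7 at OB and 37.1 at EHF.

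**Figure D3:**
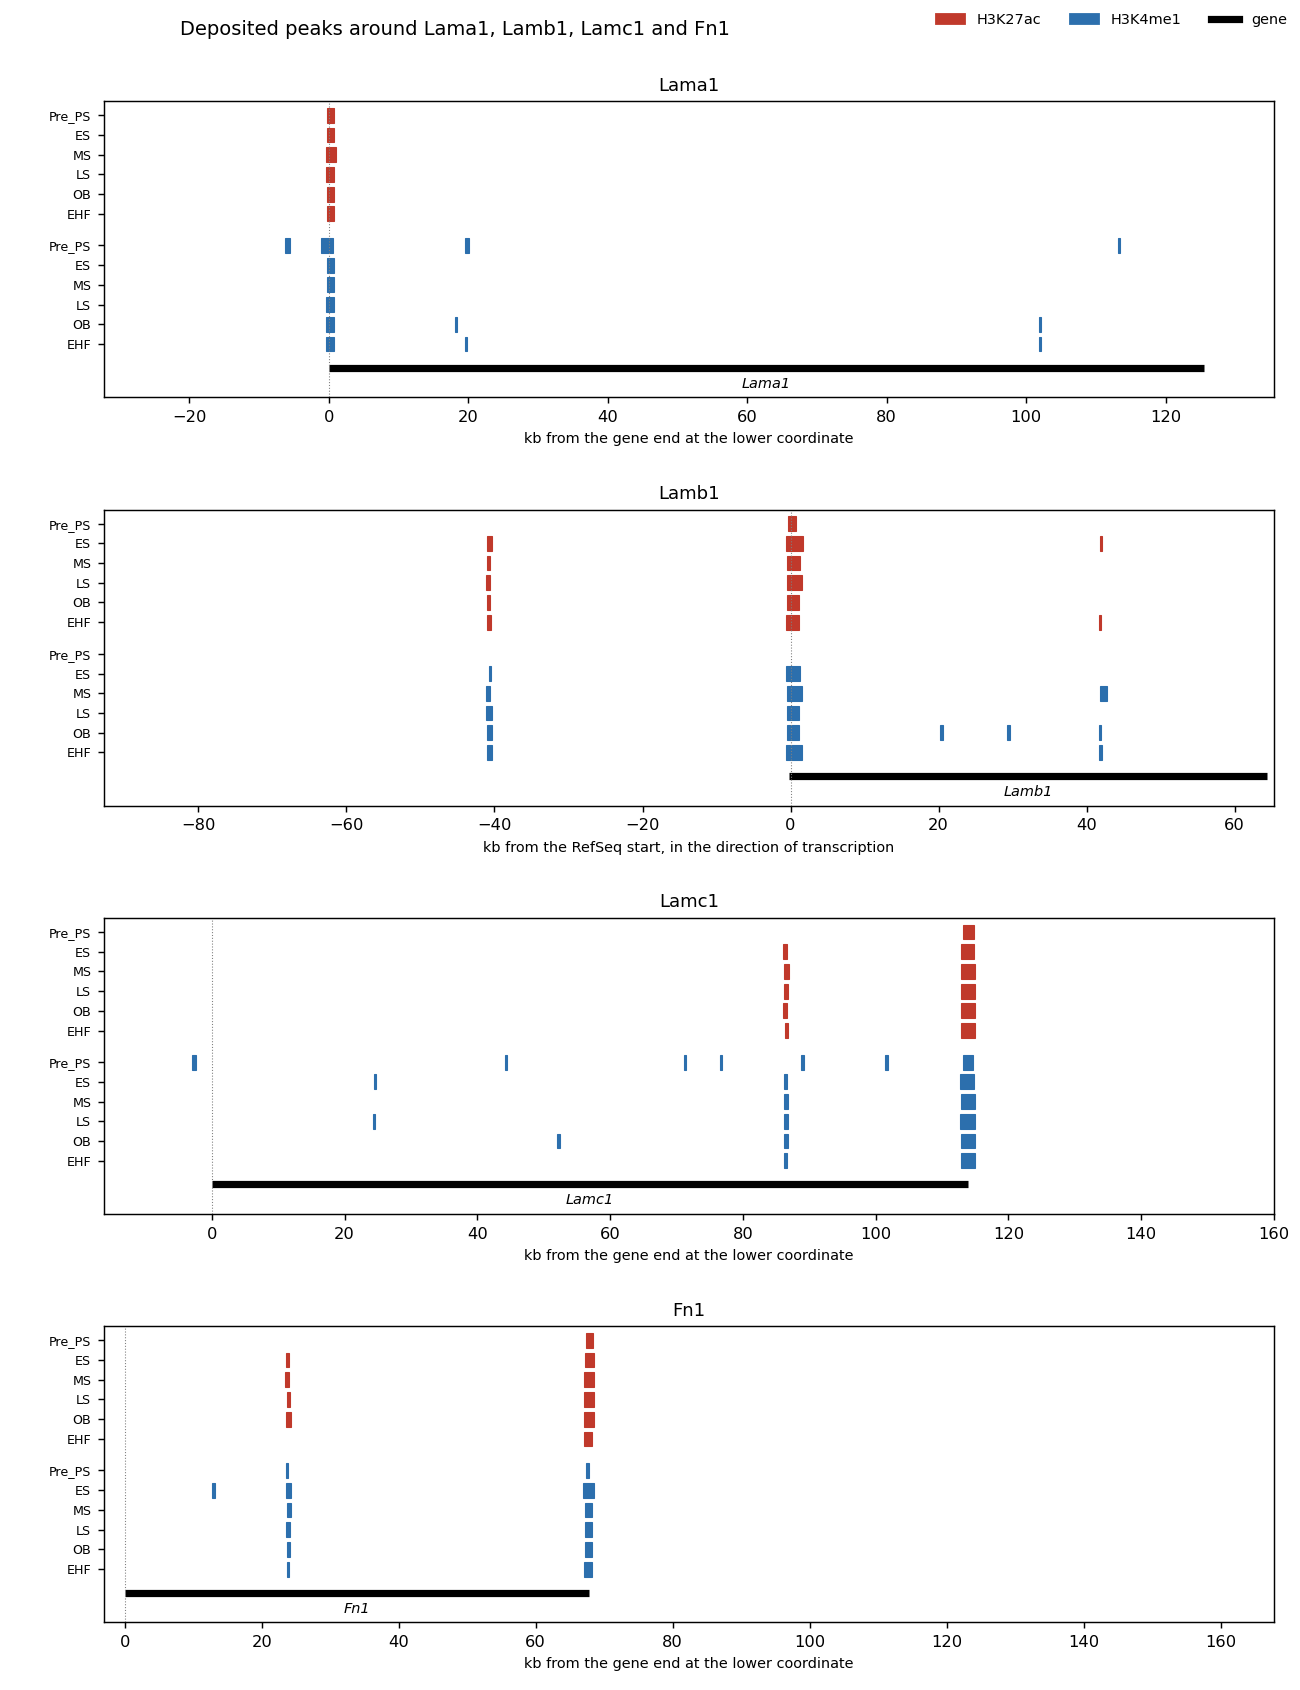
Peaks of both marks around Lama1, Lamb1, Lamc1 and Fn1; rows are stages, the black bar is the gene, and positions are in kb from the RefSeq start (Lamb1) or from the lower-coordinate end (the other 3 genes). Each gene has a strong peak at 1 end, and Lamb1 has an upstream region between −41.1 and −40.3 kb.

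Col4a1 (chr8:11198423-11312889) and Col4a2 (chr8:11312805-11449287) encode the chains of the common type IV collagen trimer and are a head-to-head pair on chromosome 8. Their RefSeq starts, at 11312826 on the minus strand and 11312805 on the plus strand, are 21 bases apart, and the annotated genes overlap by 85 bp. A single peak of each mark covered both starts in all 12 lists. It was 2.00 to 2.23 kb wide for H3K27ac at the 5 later stages. Because both genes share this end, the nearest-end rule gives the 5′ part of each gene to its partner, and the pair is best read together.

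Summed over both genes, the H3K27ac share was 178 at Pre_PS, 159 at ES, 201 at MS, 192 at LS, 229 at OB and 273 at EHF. With all peaks the 2 last stages were the highest. This turned round with an equal number of H3K27ac peaks from each list: Col4a1 then had 62.7 at OB and 63.3 at EHF, against 108 at ES and 99.1 at MS, and Col4a2 had 50.8 at OB and 42.9 at EHF, against 45.1 at ES and 42.6 at MS, so that the pair together was lower at OB and EHF. The H3K4me1 share was 173, 206, 246, 225, 276 and 187 at the same stages, highest at OB and not ordered by stage. By bases between the ends of each gene, the H3K27ac share of Col4a2 was 127 at Pre_PS, 106 at ES, 141 at MS, 135 at LS, 161 at OB and 211 at EHF, whereas that of Col4a1 was 57.5 at Pre_PS and 31.7 to 48.2 at the later stages.

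The H3K27ac of Col4a2 in the 3′ part of the gene lay in 2 wide regions and several short ones. The region chr8:11398443-11401381, 85.6 to 88.6 kb from its start, held 1.17 kb at ES, 0.584 kb at MS, 1.36 kb at LS, 1.60 kb at OB and 2.715 kb at EHF. The region chr8:11443097-11446391, at 130.3 to 133.6 kb, held 1.10 kb at ES, 2.584 kb at MS, 1.336 kb at LS, 1.096 kb at OB and 2.449 kb at EHF. The first held most H3K27ac at EHF, and the second at MS, with EHF next. The region at 120.7 to 121.3 kb had none at ES and MS and 0.30, 0.36 and 0.307 kb at LS, OB and EHF. A further region, inside Col4a1 at −33.7 to −33.1 kb from the Col4a2 start, had H3K27ac at OB and EHF alone. H3K4me1 was present at ES at each of these 4 places.

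Beyond the 3′ end of Col4a1, a region centred 10.2 kb past the gene (chr8:11187675-11188758) carried 0.811 to 0.958 kb of H3K27ac and 0.832 to 1.05 kb of H3K4me1 at each later stage. A region inside Col4a2, at −16.1 to −14.6 kb from the start of Col4a1, also carried both marks at all 5. The H3K4me1 share of Col4a1 exceeded its H3K27ac share at each of the 5, with means of 77.5 for H3K27ac and 101 for H3K4me1.

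Nid1 (chr13:13437602-13512275) encodes nidogen-1, the linker between laminin and type IV collagen. Per length, its H3K27ac range was the lowest of the 10 genes, though it overlapped that of Lama1. No H3K27ac peak was listed at Pre_PS, which has a shallow list. The share was 12.6 at ES, 11.4 at MS, 23.4 at LS, 25.3 at OB and 19.9 at EHF. The 3 last stages lay above ES and MS without overlap.

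That step came from 1 region, chr13:13478052-13478620, 40.5 to 41.0 kb inside the gene. H3K27ac was absent there at Pre_PS, ES and MS and present at LS, OB and EHF, with folds of 6.59, 5.22 and 3.40. H3K4me1 was listed at the same place at MS, LS and OB, 1 stage before the first H3K27ac peak. A second region, 43.4 to 44.8 kb from the start, had H3K4me1 at LS, OB and EHF in peaks of 1.362, 1.335 and 1.196 kb and no H3K27ac in any list. Its fold at EHF, 3.23, was the lowest of that list. The H3K4me1 share of Nid1 was 45.0 at Pre_PS, 15.2 at ES, 18.2 at MS, 47.8 at LS, 58.6 at OB and 40.5 at EHF. All 3 Pre_PS peaks were at the highest p-value of their list. The upper 50% of each H3K27ac list by −log10 q held no Nid1 peak at any stage.

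Sparc (chr11:55394159-55420080) encodes a collagen-binding matricellular protein made in quantity by parietal endoderm. It had no H3K27ac peak at Pre_PS, which has a shallow list. Its H3K27ac share was 86.1 at ES, 57.6 at MS, 73.4 at LS, 74.0 at OB and 59.5 at EHF. With an equal number of peaks from each H3K27ac list, that share was 0 at each stage before EHF and 107 at EHF. With all peaks the Sparc start carried a peak 2.07 to 2.28 kb wide at each stage from ES to EHF. It lay almost wholly inside the gene: at OB it ran from −0.10 to 2.17 kb from the start. The fold of that peak was 5.41 at ES, 6.00 at MS, 7.80 at LS, 8.14 at OB and 9.71 at EHF, in the order of the stages, although each list has its own background and the lists' median folds also differed, at 6.15, 6.85, 6.72, 6.72 and 6.97.

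H3K4me1 at the Sparc start took 2 shapes. At MS and OB it was 1 peak of 2.34 and 2.25 kb. At ES, LS and EHF it was split into 2 peaks, one within 0.496 kb of the start and one between 1.69 and 2.15 kb, with an uncovered gap between them where H3K27ac was continuous. The shapes alternated along the stages. At Pre_PS it was also split, in peaks at the lowest p-value of the list, with a share of 81.4. The H3K4me1 share followed them, with 72.6 at MS and 56.3 at OB against 22.4 at ES, 38.1 at LS and 30.4 at EHF. A further region centred 12.4 kb past the 3′ end carried H3K4me1 at each later stage and H3K27ac at ES and LS.

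**Figure D4:**
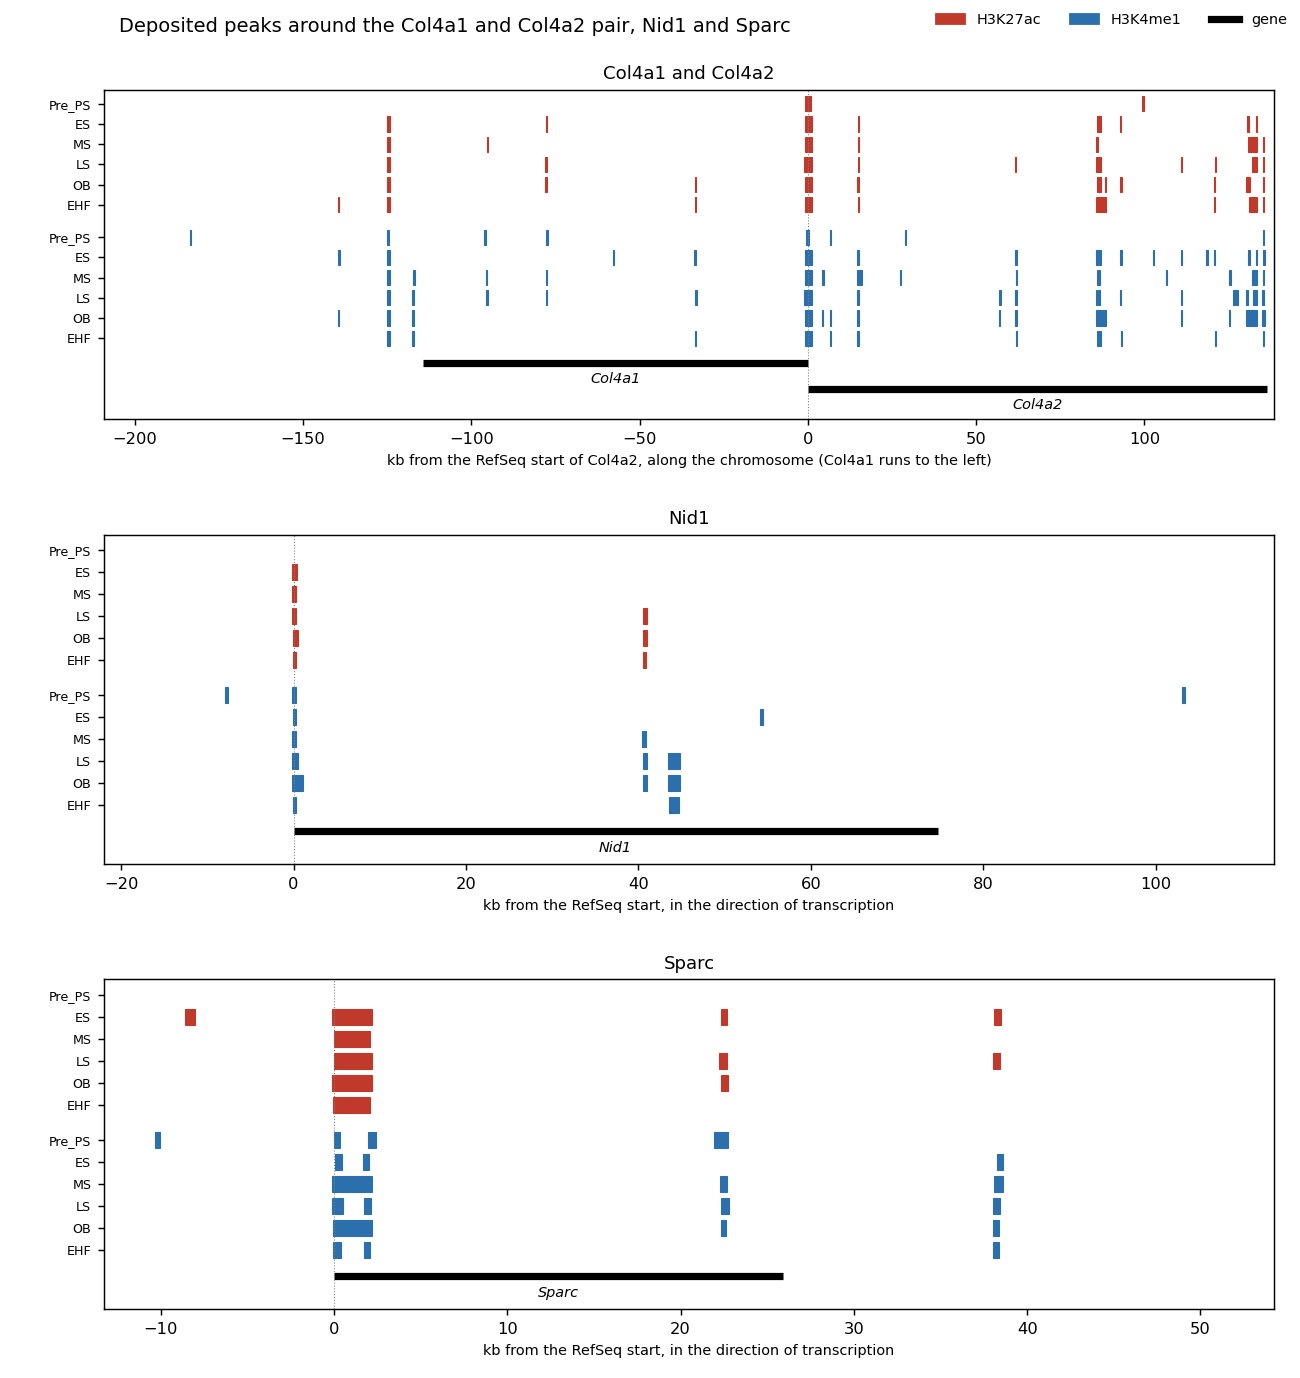
Peaks of both marks around the Col4a1 and Col4a2 pair (kb from the Col4a2 start along the chromosome), Nid1 and Sparc (kb from the RefSeq start along transcription); rows are stages and black bars are genes. The pair shares 1 start peak in all 12 lists, Nid1 has H3K27ac near 40.5 kb from LS on, and the Sparc H3K4me1 start peak is split at ES, LS and EHF.

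Each of the 10 genes thus had H3K27ac over 1 of its ends at each of the 5 later stages, and at Pre_PS 8 of the 10 had it. Of the 7 members with a RefSeq start, 7 had that start covered by H3K27ac at each later stage and 5 at Pre_PS, compared with 57.6% to 59.6% and 35.2% of 17274 starts of all genes. H3K4me1 covered 7 of the 7 starts at MS, LS, OB and EHF (58.8% to 60.7% of all starts) and 6 at ES (59.9%), where the base at the Sparc start lay just outside a peak. The opposite end of each gene was uncovered in all lists apart from the lower end of Lama5, which was covered by H3K27ac at ES. By place, 67 of the 99 merged regions lay inside their gene, 10 spanned an end and 22 lay outside.

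To ask whether marking of these genes changed as gastrulation went on, shares at OB and EHF were set against those at ES and MS. A gene was counted as higher, or lower, when both later values lay above, or below, both earlier ones, and the size of the difference is log2 of the later over the earlier mean share, each with a pseudocount of 10 bp per covered Mb. With 1 list a stage, this is a description. For H3K27ac, 4 of the 10 genes were higher and 0 were lower, while over 17119 genes 20.2% were higher and 12.8% lower. The 4 were Col4a2 with means of 171 late and 106 early (log2 ratio 0.65), Nid1 with 22.6 late and 11.98 early (0.57), Lama5 with 818 late and 729 early (0.16) and Col4a1 with 80.3 late and 74.0 early (0.10). The Col4a1 call was near a tie, with 77.6 at EHF against 77.2 at MS. It was lost without division by covered Mb and with bases between the gene ends. As Col4a1 and Col4a2 share their start peak, their calls are not independent. The median log2 ratio was 0.05 for the 10 genes and 0.03 for all.

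For H3K4me1, 3 of the 10 genes were higher and 1 was lower, against 14.4% higher and 13.2% lower of 17798 genes. Nid1 was higher with means of 49.5 late and 16.7 early (log2 ratio 1.16), Lama1 with 40.6 late and 22.3 early (0.65) and Lamc1 with 66.7 late and 59.9 early (0.14). Fn1 was lower, with means of 32.4 late and 44.8 early (log2 ratio −0.37), though its EHF share of 37.1 was just below the 38.0 at MS. The median log2 ratio was 0.11 for the 10 genes and 0.02 for all. With all peaks Nid1 was counted as higher in both marks. Without peaks at the highest p-value its H3K4me1 call was lost. Shares were then 59.2 at OB and 9.98 at EHF, against 8.42 at ES and 18.95 at MS.

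With Pre_PS and ES as the earlier stages, 4 genes were higher and 1 lower in H3K27ac, against 21.4% and 10.2% of all genes, and 2 were higher and 0 lower in H3K4me1, against 18.4% and 12.6%. The calls also turned on which peaks were used. When H3K27ac lists were cut to an equal number of peaks, 1 gene (Lamc1) was higher and 2 (Lamb1 and Col4a1) were lower, against 25.2% and 12.6% of all genes. At this setting the log2 ratio of Lama5 was −0.52 and that of Col4a1 −0.64, and Nid1 had no peak left. The log2 ratio of Col4a2 for H3K27ac stayed above 0 in all 11 alternatives run, between 0.08 and 0.89. That of Fn1 for H3K4me1 stayed below 0 in all 11, between −0.54 and −0.18. Their calls did not hold throughout. Col4a2 was not called higher with an equal number of peaks, with 42.9 at EHF against 45.1 at ES. Fn1 was not called lower with the upper 50% of each list, or with Pre_PS and ES as the earlier stages. All alternatives reuse the same lists.

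**Figure D5:**
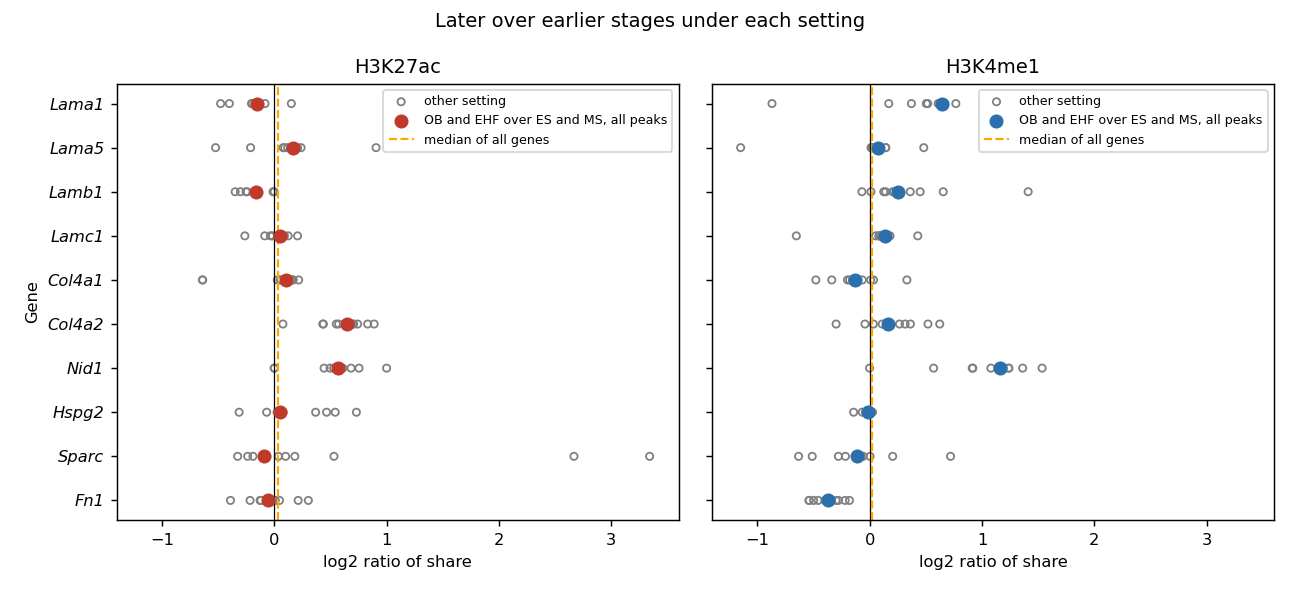
Log2 ratio of the mean share at OB and EHF over that at ES and MS for each gene, H3K27ac on the left and H3K4me1 on the right; filled points use all peaks and all 4 stages, open points are the other settings, and the dashed line is the median of all genes. Col4a2 for H3K27ac and Fn1 for H3K4me1 keep 1 sign in all settings, while Sparc spreads widest for H3K27ac.

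By single regions, 4 of the 99 were gained in H3K27ac (absent at ES and MS, present at OB and EHF) and 0 were lost, while of all 81290 regions 1.44% were gained and 1.43% lost. The gained regions are those named above near Lama5, in Nid1 and, counted to Col4a2, in Col4a2 and in Col4a1. Absent here means that no peak was listed, which does not exclude a weak signal. For H3K4me1, 3 were gained and 0 lost, against 1.16% and 2.21% of all regions. They lie in Nid1, in Lama1 and inside Col4a2, at −7.02 to −6.58 kb from the Col4a1 start, where the Pre_PS list also had a peak. Present at all 5 later stages were 30 of the 99 in H3K27ac (30.3%) and 36 in H3K4me1 (36.4%), against 27.2% and 33.0% of all regions. Pooled, this was near the rest of the series, but Hspg2 alone held 27 of the 99 regions, 13 of the 30 and 17 of the 36.

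At the 5 later stages most bases with one mark had the other. Values are pooled over the 10 genes, and at those stages Lama5 and Hspg2 held most of the covered bases. Of the H3K27ac bases of the 10 genes, H3K4me1 covered 62.8% at Pre_PS, 77.7% at ES, 89.9% at MS, 87.3% at LS, 94.9% at OB and 74.2% at EHF, against 46.7%, 83.1%, 83.2%, 88.9%, 91.9% and 84.4% of all H3K27ac bases. Of their H3K4me1 bases, H3K27ac covered 18.1% at Pre_PS, 78.3% at ES, 66.2% at MS, 80.9% at LS, 71.96% at OB and 77.1% at EHF, against 28.4%, 69.7%, 67.5%, 73.0%, 65.7% and 78.1% of all H3K4me1 bases. By share of each library, Lama5 and Lamc1 were higher in H3K27ac than in H3K4me1 at each of the 5 later stages, as were 22.6% of 18121 genes. Col4a1 and Nid1 were lower in H3K27ac than in H3K4me1 at each of them, as were 4.73% of genes. The lists of the marks differ in length, so this compares shares and not amounts of mark.

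Pooled over the 10 genes, stability of single bases was close to that of the series. The pool was mostly 2 genes: of 119 kb with H3K27ac at any later stage, Lama5 held 38.5 kb and Hspg2 51.8 kb. Of the bases with H3K27ac at any later stage, 41.4% of those in the 10 genes had it at all 5, against 43.5% on all chromosomes, and for H3K4me1 the figures were 42.7% and 40.7%. Among the genes, that value for H3K27ac ran from 14.2% at Col4a2 and 22.6% at Nid1 to 67.1% at Lama1 and 76.1% at Lamc1. At Lamc1 and Lama1 most H3K27ac lay in the end peak.

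Other genes of the matrix were counted the same way from fixed lists. Over all genes, 20.2% were higher and 12.8% lower in H3K27ac, with a median log2 ratio of 0.03. In H3K4me1 they were 14.4% and 13.2%, with a median of 0.02. Each list below is to be read beside these rates. Of 21 further basement membrane components, 6 were higher and 2 lower in H3K27ac, with a median log2 ratio of 0.17, and 3 were higher and 4 lower in H3K4me1, with a median of 0.06. In H3K27ac, Lamb2, a second laminin beta chain, was higher with means of 278 late and 182 early (log2 ratio 0.58), and Smoc1, a calcium-binding matricellular protein related to Sparc, with 70.6 late and 43.9 early (0.58). Col4a5, a further type IV collagen chain, was lower with 4.37 late and 19.6 early (−1.04). In H3K4me1, Col18a1, whose product carries endostatin, was higher with 292 late and 229 early (0.34), and Lama2, the laminin alpha chain of muscle, and Col4a5 were lower with log2 ratios of −0.71 and −0.60.

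Of 20 receptor and adhesion genes, 2 were higher and 2 lower in H3K27ac, with a median log2 ratio of 0.01. Itga2, a collagen-binding integrin alpha chain, was lower (log2 ratio −0.81), as was Itgb1, the beta chain of most laminin and fibronectin receptors (−0.27), and Ddr1, a collagen receptor kinase, was higher (0.20). In H3K4me1, 3 were higher and 1 lower, with a median of −0.06, among them Ptk2, the focal adhesion kinase (0.27), Lims1 (0.18) and Parva (−0.33), both parts of the integrin-linked kinase complex. Of 13 collagen processing genes, 1 was higher and 1 lower in H3K27ac, namely Plod2 (0.27), a lysyl hydroxylase, and Pxdn (−0.16), the peroxidase that crosslinks type IV collagen. In H3K4me1, 4 were higher and 1 lower, including Plod3 (1.05), Colgalt1 (0.38) and Plod1 (0.34), which modify collagen lysines. The medians of this list were 0.0017 and 0.0050. Of 13 matrix proteases and inhibitors, 3 were higher and 2 lower in H3K27ac, including the proteases Adamts1 (0.61), Mmp14 (0.47) and Adamts9 (−0.35), and 1 was higher and 0 lower in H3K4me1, Adamts9 (0.18). Its medians were −0.01 in H3K27ac and 0.13 in H3K4me1.

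Markers of other cell types were read in the same way, beside the same rates over all genes. These were 20.2% higher and 12.8% lower in H3K27ac, and 14.4% and 13.2% in H3K4me1. The 14 parietal endoderm genes summed to H3K27ac shares of 1558 at OB and 1496 at EHF, against 1412 at ES and 1504 at MS, and 5 were higher and 1 lower, among them Gata6 (0.21), Gata4 (0.18) and Dab2 (0.12). Of these, Gata4 and Gata6 also act in heart and gut endoderm. In H3K4me1, 3 were higher and 2 lower, with Krt8 at 0.63, Gata4 at 0.33 and Dab2 at −0.52. The 15 visceral endoderm genes summed to 673 at OB and 711 at EHF, against 678 at ES and 634 at MS, with 2 higher (Foxa2 0.24, Amn 0.14) and 2 lower, including Trf (−0.22). In H3K4me1, 1 was higher (Hhex 0.19) and 1 lower (Hnf4a −0.30). Median log2 ratios in H3K27ac and H3K4me1 were 0.09 and 0.07 for the parietal list and −0.0061 and −0.08 for the visceral list.

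The 12 trophoblast genes summed to 1551 at OB and 1467 at EHF, against 1420 at ES and 1409 at MS, with 3 higher, Esrrb (0.31) and Cdx2 (0.25) among them, and 1 lower, Eomes (−0.36). In H3K4me1, 5 were higher, including Furin (0.41), Bmp4 (0.38) and Ascl2 (0.28), and 0 lower. Of 12 epiblast genes, 3 were higher and 3 lower in H3K27ac, including Utf1 (0.30), Dnmt3b (0.20) and Tdgf1 (−0.81), and 2 were higher and 1 lower in H3K4me1, namely Tdgf1 (0.92), Epcam (0.35) and Fgf5 (−0.59). Of 12 mesoderm genes, 2 were higher and 0 lower in each mark, with Hand1 (0.21) and Vim (0.11) in H3K27ac and Vim (0.19) and Lefty2 (0.15) in H3K4me1. Medians in H3K27ac and H3K4me1 were 0.10 and 0.05 for trophoblast, 0.05 and −0.0041 for epiblast and 0.06 and 0.08 for mesoderm, and some genes, such as Vim and Hand1, stand in more than 1 list. The part of such changes in cell makeup in the values of the basement membrane genes was not tested, and in pools of cells a larger share of marked cells cannot be told apart from wider marking in each.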

How the data were processed

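Per the submitters' processing notes, Bowtie2, Picard, MACS2, deepTools and mm10 were used; versions: not given in the sources used. The authors deposited 1 broad peak list per stage and mark, with cells pooled. Each deposited peak has a score (10 times −log10 q without decimals, not used here), a fold over background as a ratio, and −log10 p and −log10 q values, by the broadPeak layout. Fragment totals were not used here, so depth is known only as number of peaks and covered Mb, and no interval is given.

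From these lists, covered bp of each gene's nearest bases (limit 100 kb) was divided by the covered Mb of the list, on chromosomes 1 to 19 and X. Log2 ratios used a pseudocount of 10 bp per covered Mb. Regions were peaks of all lists merged, present in a list at an overlap of 1 bp. Python 3.11.15, numpy 2.4.6, pandas 2.3.3 and matplotlib 3.10.9 were used, and the code was tested on simulated data. Gene ends came from the reference gene table. Promoters came from RefSeq, which matched 7 of the 10 genes; ends of Lama1, Lamc1 and Fn1 are given by coordinate. Genes of other lists are named where the pairs of stages do not overlap, up to 3 per list and mark with the largest log2 ratio. Genes and lists were chosen with earlier results of these data known. Alternatives covered the peaks used, the division, the bases counted and the stages.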

Additional observations from a re-analysis of the deposited data

How the results depend on the processing

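No paired analysis was possible because each stage and mark has 1 list. Of the log2 ratios of single genes over 11 alternatives, 86 in H3K27ac and 82 in H3K4me1 moved by less than the SD within pairs of stages. Another 20 and 26 moved by more. The other 4 in H3K27ac were sign changes of the called genes Lama5 and Col4a1, with an equal number of peaks and with the upper 50%. The other 2 in H3K4me1 were those of Lama1 and Lamc1 with Pre_PS and ES as earlier stages. Sign changes of genes not called are counted by the size of the move alone. In H3K27ac, with an equal number of peaks 1 gene was higher and 2 lower (25.2% and 12.6% of all genes), with Lama5 at −0.52 and Col4a1 at −0.64. With the upper 50% of each list 2 were higher and 2 lower (15.1% and 11.8% of all genes), with Lama5 at −0.21 and Col4a1 at −0.64. Undivided covered bp gave a median of −0.042, with −0.038 for all genes. Pre_PS and ES as earlier stages gave 1 lower (10.2% of all genes) and a median of 0.32, with 0.0045 for all genes. In H3K4me1, the upper 50% gave 1 higher and a median of −0.021. Without peaks at the highest p-value, or with bases between the gene ends, 2 were lower, against 12.5% and 10.9% of all genes. Pre_PS and ES gave 0 lower (12.6% of all genes), Lama1 at −0.87, Lamc1 at −0.65 and a median of −0.0401, with 0.023 for all genes.

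Leaving out ES, MS, OB or EHF gave 4 to 6 higher and 1 to 3 lower in H3K27ac, with 6 higher without ES or MS and 3 lower without MS. Of all genes, 33.0% were higher without ES, 45.3% without MS, 38.3% without OB and 32.7% without EHF, and 22.4% to 36.5% were lower. In H3K4me1 it gave 3 to 7 higher and 1 to 4 lower, with 7 higher without MS and 4 lower without ES. The medians were −0.0027 to 0.24, with −0.046 to 0.053 for all genes. Of all genes, 25.9% to 43.1% were higher, with 33.7% without MS, and 24.6% to 35.3% lower, with 30.7% without ES. A single stage on one side makes a lack of overlap more frequent by construction. Genes with more H3K27ac than H3K4me1 numbered 4 with an equal number of peaks, 1 with the upper 50%, 0 undivided and 1 between gene ends. When 50% of a region had to be covered, 16 were stable in H3K27ac and 16 in H3K4me1. With the upper 50%, 1 was gained, 1 lost and 11 stable in H3K27ac, and 1 lost and 13 stable in H3K4me1. The shares over all genes or regions at these settings are not given, so these mark and region counts have no background here. Apart from what each setting leaves out, the cause was not tested.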

Other observations

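Among 6789 genes outside the lists with at least 20 kb covered in all, the 3 whose shares over the 12 peak lists were most like the summed share of the 10 basement membrane genes were Pard6b (Pearson r = 0.96), Manba (0.955) and Abca3 (0.95), with each mark centred and scaled over its 6 stages. This likeness is a description, as the points share libraries. The low H3K27ac sum at Pre_PS, 830 against 1842 to 2242 later, moves with the number of peaks in that list. At the later stages the H3K27ac sum without Lama5 and Hspg2 was 467 to 558. The likeness there is thus mostly to Lama5 and Hspg2 and not to the set.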
